A study of Mus musculus with 4 samples.

Results

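Different ways of making neuromesodermal progenitors in culture were set side by side, gene by gene, in the cells that the deposited cell table marks TRUE in its column named use. These were 1111 of 2624 Epi-NMP cells (42.3%) and 3116 of 3288 ES-NMP cells (94.8%), so 4227 cells of the 10579 in the whole series. What the mark stands for is not given in the sources used here.

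In the embryo, neuromesodermal progenitors (NMPs) lie at the caudal end and supply both the spinal cord and the paraxial mesoderm, the tissue of the somites. They are recognised by the joint presence of T (Brachyury), a factor of the primitive streak, and Sox2, which both pluripotent and neural cells use. WNT and FGF signals keep them, and their Hox genes are switched on in the order of the chromosomal clusters as the body axis lengthens.

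The series holds 4 mouse populations profiled with droplet-based single-cell RNA sequencing, 1 library each. ES-NMP cells were embryonic stem cells on 0.1% gelatine, given N2B27 medium for 2 days and then the GSK3 inhibitor CHIR99021 (3 µM, an activator of WNT signalling) for the last 24 h of 72 h. Epi-NMP cells began as epiblast stem cells grown on fibronectin in N2B27 with FGF2 (12 ng/ml) and Activin A (25 ng/ml). Activin was withdrawn while FGF2 was raised to 20 ng/ml, CHIR99021 at 3 µM followed on day 3 to give the population called Epi-CE, and the cells were then detached, replated and held for 2 more days in both agents. The labels name the strain E14Tg2a and passages 15 to 30 for every library. With 1 library a side there is no replicate check, no test was run, and protocol, starting cell, day and library cannot be told apart.

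The Epi-NMP cells summed to 22261452 unique molecular identifiers (UMIs, counted RNA molecules) with a median of 19252 a cell, and the ES-NMP cells to 71563029 with a median of 22066. The medians of detected genes were 4209 and 4421, and 2.61% and 2.28% of UMIs came from the mitochondrial genome. The libraries shared 5 barcode sequences among these cells. A label did not match the counts. Hprt codes for the purine salvage enzyme whose loss is a known trait of E14Tg2a cells, and Epi-NMP had 21 of its UMIs (0.943 CPM, UMIs per 1000000) while ES-NMP had 14592 (204 CPM). Epi-CE was at 0.801 CPM of Hprt, like Epi-NMP, and the sorted reporter library Epi-CE-T at 138 CPM. The ES-NMP library is therefore one labelled E14Tg2a in which Hprt was detected in 78.1% of cells, and cell line and protocol cannot be told apart in any difference given here.

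Levels were compared as CPM of the summed cells, with 95% intervals that cover counting error only. Of 12949 genes that reached 50 UMIs when the libraries were added together, 968 (7.48%) were at least 2-fold higher in Epi-NMP and 1545 (11.9%) at least 2-fold lower, 2513 (19.4%) in all. The median log2 ratio of all these genes was 0.02, with quartiles at -0.37 and 0.37, and 419 genes were at least 10-fold lower against 70 that were at least 10-fold higher. The balance depends on the minimum. ES-NMP gave more UMIs, so a gene seen there alone passes at a lower CPM than one seen in Epi-NMP alone. With no minimum beyond 1 UMI 3914 genes were at least 2-fold higher and 2366 lower. In those counts a 0 was set to 3 counts, so a gene with 1 UMI in ES-NMP and none in Epi-NMP counted as higher. They therefore do not give the direction of rare genes. Shares of cells with a UMI were compared after every cell had been thinned to 8000 UMIs, which left none out. A share was at least 20 percentage points higher in Epi-NMP for 89 genes (0.687%) and at least 20 points lower for 83 (0.641%). A summed level cannot tell fewer cells from less RNA per cell, and the shares are given for that reason. Where a pair of values follows without library names, ES-NMP comes first. The plot of all levels shows the longer tail of measured genes below the diagonal.

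**Figure D1:**
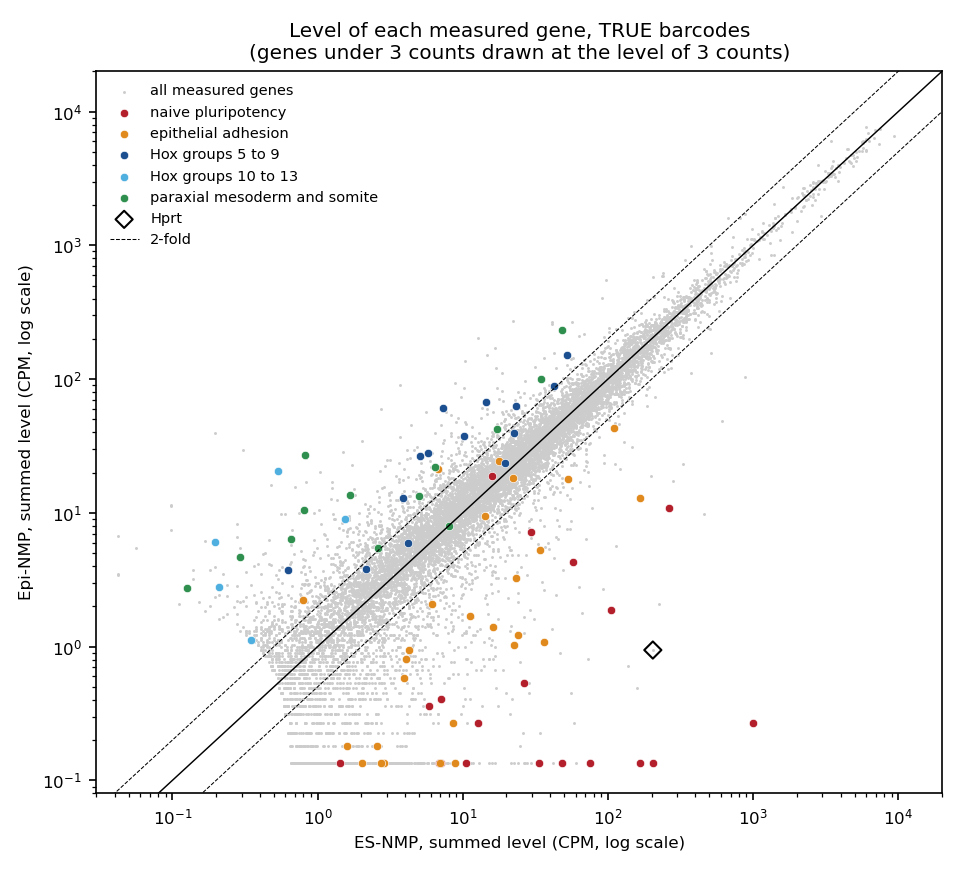
Summed level of each of the 12949 measured genes in ES-NMP (x) and Epi-NMP (y), in CPM on log axes, with genes under 3 counts drawn at the level of 3 counts. The lines mark equal levels and 2-fold differences: 968 genes lie above the upper line and 1545 below the lower one, with 18 of the 19 naive genes (red) and Hprt (diamond) among the latter and the Hox groups 10 to 13 (light blue) among the former.

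Many of the genes furthest apart belong to the pluripotent state. Naive pluripotency is the condition of embryonic stem cells, held by factors such as Zfp42, Esrrb and Klf2, and primed pluripotency is that of the later epiblast. All 19 listed naive genes were measured and 18 were at least 2-fold lower in Epi-NMP, with a median log2 ratio of -5.80. Dppa5a, a marker of naive cells with near-identical copies in the genome, had 71768 UMIs in ES-NMP and 6 in Epi-NMP, so it was 3721-fold lower (1709 to 10139). Zfp42 (Rex1), the classical naive marker, had 11962 UMIs in ES-NMP and 0 in Epi-NMP and was at least 1240.4-fold lower, taking 3 counts as the limit that 0 allows, and 0 of 1111 Epi-NMP cells at 8000 UMIs allow up to 0.27% of cells with a UMI by the same 3 counts, which limits detection and not expression. Dppa3 (Stella) had 5368 UMIs in ES-NMP and 0 in Epi-NMP, and Tdh, the threonine dehydrogenase of mouse stem cells, 14706 UMIs in ES-NMP and 3 in Epi-NMP. In Epi-NMP these genes were at or near background: Dppa5a was seen in 0.36% of cells. The exception was Klf4, at 15.9 CPM in ES-NMP and 18.9 in Epi-NMP.

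The stretches before the start sites of Nanog and Zfp42 are shown because both genes were high in ES-NMP and nearly absent in Epi-NMP, and because each holds letters that POU factors such as Pou5f1 bind. Sequences are the 250 bases upstream of the start in RefSeq's GRCm38.p6, 5′ to 3′ on the gene's strand, with matches on either strand in capitals. Nanog lies at chr6:122707315-122707564 (plus strand), where TTTGCAT starts 151 bases before the start and ACAATG, read by SOX factors, 143 bases before it. Zfp42 lies at chr8:43307010-43307259 (minus strand), with TTTGCAT 185 bases before the start.
Nanog: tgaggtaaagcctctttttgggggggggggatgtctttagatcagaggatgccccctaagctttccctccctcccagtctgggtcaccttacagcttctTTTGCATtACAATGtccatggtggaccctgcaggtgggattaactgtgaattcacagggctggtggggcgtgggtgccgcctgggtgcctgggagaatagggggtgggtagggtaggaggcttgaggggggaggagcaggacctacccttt
Zfp42: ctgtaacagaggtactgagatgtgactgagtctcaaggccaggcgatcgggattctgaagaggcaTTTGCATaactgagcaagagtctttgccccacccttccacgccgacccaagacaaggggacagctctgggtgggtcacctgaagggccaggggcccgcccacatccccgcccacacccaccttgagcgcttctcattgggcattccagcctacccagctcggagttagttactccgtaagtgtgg
TTTGCAT was in 1355 of 32851 mouse promoter windows of 250 bases (4.12%), ACAATG in 3512 (10.7%), and the 2 joined by any 1 base (TTTGCATNACAATG) in 2 (0.00609%), Nanog's being 1 of them. Among 13 core and primed genes with a window, TTTGCAT was found in Nanog only and ACAATG in Pou5f1, Nanog and Lin28a, and among 9 naive genes TTTGCAT was in Zfp42 only. A match describes letters and is not a shown binding site.

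Cells within ES-NMP differed in these genes. After thinning, 1237 ES-NMP cells (39.7%) held UMIs of 3 or more naive genes and are called naive-high here, and 1879 (60.3%) held 0 to 2 and are called naive-low. The count of naive genes per cell had a peak at 1 and another at 9 genes, and 442 cells with 2 and 244 with 3 lay next to the limit, so the classes are ranges and not cell types. In Epi-NMP 0.27% of cells held 3 or more. Median depth was 23006 UMIs in naive-high and 21542 in naive-low cells. Since many differences between the libraries depend on the naive-high cells, the medians of the developmental lists, and the ratios of most named genes that moved by over 1.5 times, are also given against the naive-low cells alone. The minimum of 50 UMIs was applied again without the naive-high cells, so those medians can cover fewer genes of a list. Where other choices of cells, depth or weight moved a named ratio by over 1.5 times, the range over those choices and the value first given follows for most genes. The classes were made from the naive genes themselves, so the smaller differences of those genes against naive-low cells follow from that choice. Their median was -2.01 there, over the 13 of 19 that kept 50 UMIs. Dppa5a and Tdh were then at log2 ratios of -7.98 and -6.54, in place of -11.86 and -10.57. For Zfp42 and Dppa3, with 0 counts in Epi-NMP, the bounds were -5.62 and -3.76, in place of -10.28 and -9.12. Under the other choices that moved them, Dppa5a ranged from -11.86 to -11.07, Zfp42 from -12.29 to -8.96 and Dppa3 from -9.12 to -7.77 on the log2 scale.

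**Figure D2:**
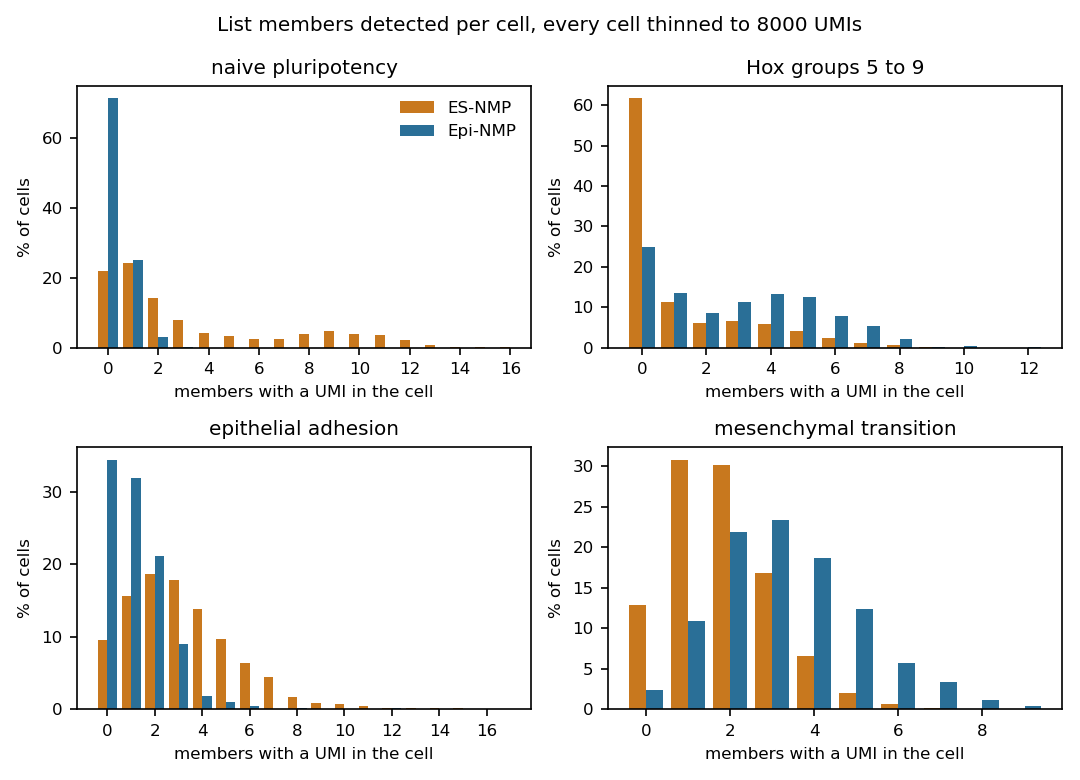
Number of genes of a list with a UMI in each cell, thinned to 8000 UMIs (x), against the percentage of cells of each library (y). Over the naive list ES-NMP has a peak at 1 gene and another at 9, with cells at every count between, while 0.27% of Epi-NMP cells hold 3 or more. Epi-NMP reaches higher counts of Hox groups 5 to 9, where 61.7% of ES-NMP cells and 25% of Epi-NMP cells had none. In the lower panels ES-NMP cells hold more epithelial and fewer mesenchymal genes.

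Of 17 measured core and primed genes, 10 were at least 2-fold lower in Epi-NMP and none higher, with a median of -2.25, or -1.76 against naive-low cells. Pou5f1 (Oct4), the factor common to all pluripotent states, was at 458 CPM in ES-NMP and 9.79 in Epi-NMP, 46.8-fold lower (41 to 53.7). It was detected in 78.2% of ES-NMP cells and 4.77% of Epi-NMP cells, and in 95.8% of naive-high and 66.6% of naive-low cells, so it was seen in ES-NMP beyond the naive-high cells. Nanog was at 58.2 CPM in ES-NMP and 0.27 in Epi-NMP, 216-fold lower (99.1 to 588), and Utf1, a chromatin factor of pluripotent cells, at 137 CPM in ES-NMP and 0.719 in Epi-NMP. Otx2, a factor of primed and anterior epiblast, was at 5.04 CPM in ES-NMP and 0.135 in Epi-NMP. The DNA methyltransferase Dnmt3b was detected in 55.5% of ES-NMP cells and 20.8% of Epi-NMP cells, and its cofactor Dnmt3l had 1709 UMIs in ES-NMP and 2 in Epi-NMP. Other members were close: Lin28a was at 79.7 CPM in ES-NMP and 77.3 in Epi-NMP and Sall4 at 66.9 and 49.2. Pou5f1, Nanog, Utf1 and Dnmt3l had log2 ratios of -4.95, -6.16, -4.94 and -3.41 against naive-low cells, in place of -5.55, -7.75, -7.57 and -8.05. Utf1 ranged from -8.54 to -6.95 and Dnmt3l from -9.37 to -6.03 on the log2 scale under the other choices that moved them.

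Genes of the Nodal and Activin pathway, which supports the primed state and patterns the streak, were lower as well: 8 of 11 measured against 1 higher, with a median of -4.02, or -4.43 against naive-low cells. The ligand Nodal itself was at 16.1 CPM in ES-NMP and 3.68 in Epi-NMP, 4.36-fold lower (3.49 to 5.53). Its co-receptor Tdgf1 (Cripto) had 4322 UMIs in ES-NMP and 0 in Epi-NMP, at least 448-fold lower. The inhibitor Lefty1, a target of the pathway, was at 225 CPM in ES-NMP and 2.07 in Epi-NMP, 109-fold lower (81.8 to 149). Follistatin (Fst), which binds Activin, was at 281 CPM in ES-NMP and 17.3 in Epi-NMP and was detected in 50.9% of ES-NMP cells and 8.37% of Epi-NMP cells. The receptors Acvr1b and Acvr2b differed less and in the other direction, with Acvr2b at 57.3 CPM in ES-NMP and 91.9 in Epi-NMP. Germ cell genes, of which several also mark naive cells, had 9 of 12 measured members lower and none higher, with a median of -4.88, or -2.63 against naive-low cells. Ddx4, an RNA helicase of germ cells, had 370 UMIs in ES-NMP and 0 in Epi-NMP, while Sycp3 was at 32.7 CPM in ES-NMP and 31.5 in Epi-NMP. Tdgf1 and Ddx4 had bounds of -6.64 and -4.24 against naive-low cells on the log2 scale, in place of -8.81 and -5.26. Lefty1 ranged from -9.03 to -6.13, Tdgf1 from -10.83 to -7.44 and Ddx4 from -5.26 to -3.82 on the log2 scale under the other choices that moved them.

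The NMP genes themselves did not move in 1 direction. Of 22 listed and measured, 4 were at least 2-fold higher in Epi-NMP and 8 lower, with a median of -0.24, or -0.71 against naive-low cells, and 81.1% of ES-NMP cells and 86.6% of Epi-NMP cells held 3 or more. Over all measured genes 7.48% were higher and 11.9% lower. T was at 102 CPM in ES-NMP and 241 in Epi-NMP, 2.35-fold higher (2.27 to 2.44), and was detected in 33.2% of ES-NMP cells and 53% of Epi-NMP cells. Sox2 was at 71.7 CPM in ES-NMP and 99.99 in Epi-NMP, 1.4-fold higher (1.33 to 1.47), and was detected in 32.7% and 42.2%. Both ratios depend on the naive-high cells, which held T in 21.7% and Sox2 in 50.6% of cells against 40.7% and 20.9% of naive-low cells. Against naive-low cells the log2 ratio of T was 0.86 in place of 1.23, under 2-fold, and that of Sox2 1.52 in place of 0.48, over 2-fold. With cells of at least 15000 UMIs alone, T was at a log2 ratio of 0.86.

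Nkx1-2, which codes for a caudal epiblast homeobox protein, was at 134 CPM in ES-NMP and 79.5 in Epi-NMP, 1.69-fold lower (1.6 to 1.78), and its log2 ratio was -1.16 against naive-low cells. It was detected in 50.8% of ES-NMP cells and 35.7% of Epi-NMP cells, and in 63.1% of naive-low cells. The caudal homeobox genes parted from each other. Cdx2 was at 245 CPM in ES-NMP and 336 in Epi-NMP, and 70.8% of naive-low cells and 66.7% of Epi-NMP cells held it, so the sign of its log2 ratio, 0.46, turned to -0.13 against naive-low cells. Cdx1 was at 77.6 CPM in ES-NMP and 11 in Epi-NMP, 7.08-fold lower (6.22 to 8.08), and Cdx4 had 284 UMIs in ES-NMP and 1 in Epi-NMP. Wnt8a, a streak ligand, was at 44.1 CPM in ES-NMP and 2.43 in Epi-NMP, 18.2-fold lower (13.9 to 24.3), and Hes3, a Hes-family repressor, at 36.1 CPM in ES-NMP and 2.65 in Epi-NMP. Evx1, a homeobox gene of the posterior streak, was at 24.7 CPM in ES-NMP and 10.1 in Epi-NMP. Fgf8 and Tbx6 stood level, Fgf8 at 66.7 CPM in ES-NMP and 66.7 in Epi-NMP and Tbx6 at 8.08 and 8.0. The higher members besides T were Wnt5a, Cyp26a1 and Epha5. Cyp26a1, the enzyme that clears retinoic acid, was at 3.66 CPM in ES-NMP and 23.6 in Epi-NMP, 6.45-fold higher (5.55 to 7.51), and Epha5, an ephrin receptor, at 3.17 CPM in ES-NMP and 24.9 in Epi-NMP, 7.85-fold higher (6.71 to 9.2). Hes3 and Cyp26a1 had log2 ratios of -4.37 and 2.02 against naive-low cells, in place of -3.77 and 2.69. Cdx4 ranged from -6.47 to -5.07 on the log2 scale under the other choices that moved it.

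T and Sox2 were found together in 21.4% (19 to 24) of Epi-NMP cells and 5.84% (5.04 to 6.72) of ES-NMP cells at 8000 UMIs. The product of the separate shares was 22.4% in Epi-NMP, near the joint share, and 10.8% in ES-NMP, above it. In naive-high cells the joint share was 5.82% with a product of 11%, and in naive-low cells 5.85% with 8.48%, so ES-NMP cells held the pair less often than the product within both classes. Sox2 and Cdx2 were together in 37.1% of Epi-NMP cells (product 28.2%) and 11.8% of ES-NMP cells (product 17.1%). In naive-low cells Sox2 and Cdx2 were together in 14.2%, near the product of 14.8%, and in naive-high cells in 8.08%, below the product of 12.4%. T and Nkx1-2 ran the other way: 15.4% of Epi-NMP cells (product 18.9%) and 22.9% of ES-NMP cells (product 16.9%). No doublet was removed from these shares. Without the 5% of cells with most UMIs, the cells with T and Sox2 were 21.9% of Epi-NMP and 5.74% of ES-NMP. The part of free RNA in joint detection was not tested.

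**Figure D3:**
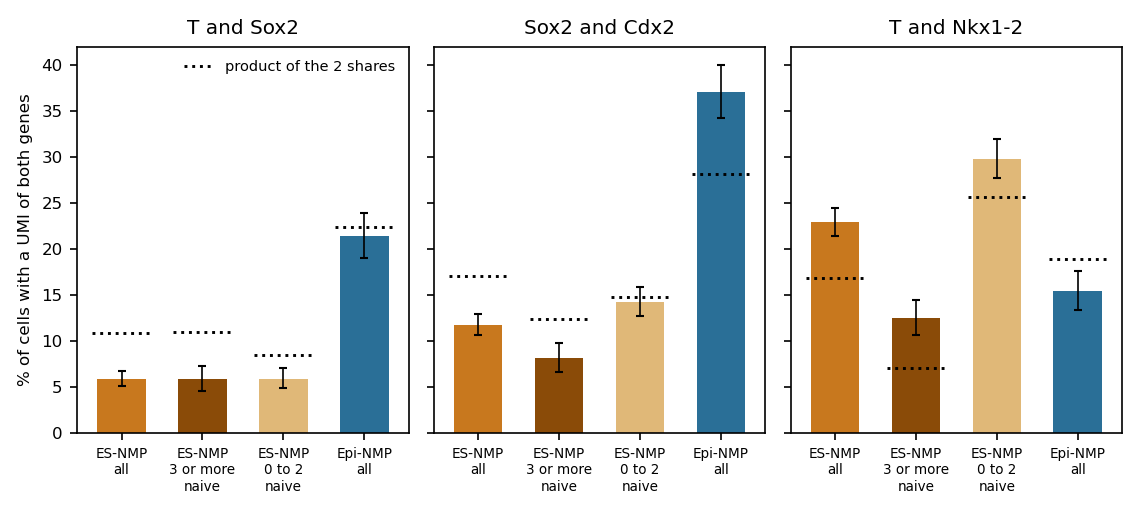
Percentage of cells with a UMI of both genes of a pair after thinning to 8000 UMIs, for each library and for the naive-high and naive-low ES-NMP cells, as bars with 95% Clopper-Pearson intervals, with the product of the separate shares as a dotted line. T and Sox2 reach 21.4% in Epi-NMP, near the product, and 5.84% in ES-NMP, below it.

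Hox genes, whose paralogue groups mark position from head to tail, were higher in Epi-NMP across the clusters. Of groups 1 to 4, 8 of 11 measured genes were at least 2-fold higher and 1 lower (median 1.42, or 0.79 against naive-low cells). Of groups 5 to 9, 10 of 14 were higher and none lower (1.64, or 0.98 against naive-low cells). Of groups 10 to 13, 5 of 12 listed genes passed the minimum of 50 UMIs and all 5 were higher (3.73, or 3.62 against naive-low cells), but a member near 0 in ES-NMP could reach the minimum only by being high in Epi-NMP. The latter median was taken over the genes that passed the minimum again. Hoxd11, at 3.73 over all ES-NMP cells, was at 3.06 against naive-low cells. A median Epi-NMP cell held 3 genes of groups 5 to 9 and a median ES-NMP cell 0, and 20.9% of ES-NMP cells and 52.9% of Epi-NMP cells held 3 or more. The naive-high cells held few of these genes, Hoxb9 being in 3.88% of them and in 33% of naive-low cells.

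Hoxc9 (chromosome 15, 102976439 to 102985099, plus strand, mm10, protein-coding) was at 7.29 CPM in ES-NMP and 61.2 in Epi-NMP, 8.39-fold higher (7.58 to 9.3), and was detected in 4.81% of ES-NMP cells and 28.5% of Epi-NMP cells. Against naive-low cells its log2 ratio was 2.39 in place of 3.07. Its neighbour Hoxc10 (chromosome 15, 102966796 to 102971893, plus strand) had 38 UMIs in ES-NMP and 460 in Epi-NMP, 38.9-fold higher (27.9 to 55.7). In the HoxB cluster Hoxb9 was at 52.1 CPM in ES-NMP and 151 in Epi-NMP, 2.9-fold higher (2.76 to 3.03), and Hoxb4 at 16.3 and 56.7. Hoxd10 had 14 UMIs in ES-NMP and 134 in Epi-NMP, and Hoxa10 was at 1.55 CPM in ES-NMP and 8.98 in Epi-NMP. The early gene Hoxb1 went the other way, at 52.1 CPM in ES-NMP and 13.7 in Epi-NMP, 3.81-fold lower (3.39 to 4.3). Among Epi-NMP cells Hoxc9 was found with Sox2 in 17.2% (product 12%) and with T in 13.9% (product 15.1%). The transcripts Hoxb5os and Hoxaas3, antisense to Hox genes, were detected in 8.99% and 50.2% and 25.5% and 65.5% of ES-NMP and Epi-NMP cells. How strand was used in counting is not given in the sources used here, so their reads cannot be told apart from those of the overlapping Hox genes. The Hox cofactors, which bind DNA with Hox proteins, had 3 of 9 higher and 1 lower (median 0.90, or 0.31 against naive-low cells), with Pbx2 at 12.7 CPM in ES-NMP and 34 in Epi-NMP. Against naive-low cells the calls of Meis2 and Pknox2 ended, at log2 ratios of 0.81 and 0.69 in place of 1.37 and 1.20. Hoxc10, Hoxd10, Hoxa10 and Hoxb1 had log2 ratios of 4.59, 4.18, 1.81 and -2.54 against naive-low cells, in place of 5.28, 4.94, 2.53 and -1.93. Hoxd10 ranged from 4.94 to 5.66 on the log2 scale under the other choices that moved it.

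**Figure D4:**
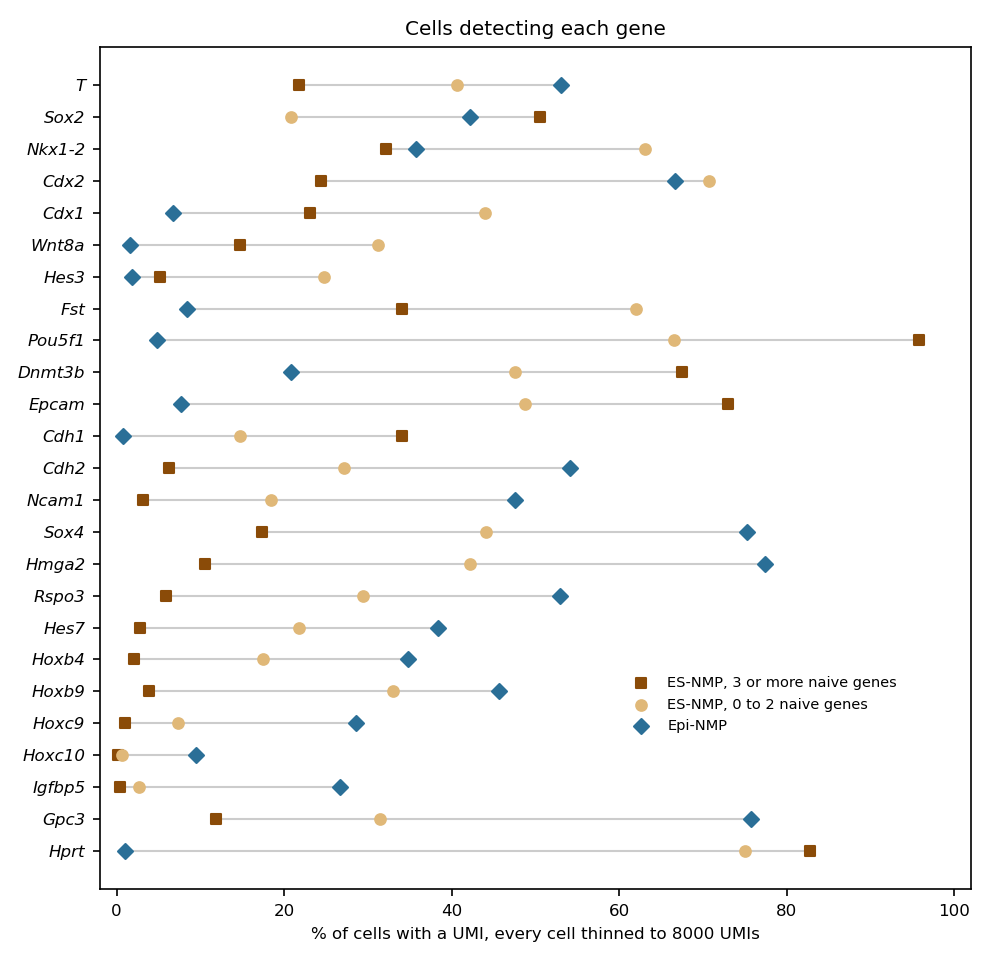
Percentage of cells with a UMI after thinning to 8000 UMIs, for named genes (y), in naive-high and naive-low ES-NMP cells and in Epi-NMP cells. Pou5f1 is at 95.8%, 66.6% and 4.77%, and Hoxb9 at 3.88%, 33% and 45.6%.

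Genes of paraxial mesoderm, from the presomitic tissue to the somite, were higher in Epi-NMP in 12 of 13 measured (22 listed) and lower in none, with a median of 2.28, or 2.18 against naive-low cells. The latter median was taken over the genes that passed the minimum again, and Meox1 and Rspo3 fell further, as given below. Here too a member near 0 in ES-NMP could reach the minimum of 50 UMIs only by being high in Epi-NMP. Cells with none of the listed paraxial genes were 60% of ES-NMP and 21.6% of Epi-NMP cells, and 4.46% of ES-NMP cells and 15.1% of Epi-NMP cells had 3 or more. Widely detected members weigh in these counts. Rspo3 was in 20.1% of ES-NMP cells and 52.9% of Epi-NMP cells, and Hes7 in 14.2% and 38.4%, while the somite factors named next were in far fewer. Meox1, a homeobox factor of formed somites, was at 0.824 CPM in ES-NMP and 27 in Epi-NMP, 32.7-fold higher (25 to 43.5), and was detected in 0.353% and 6.66%. Mesp1, a factor of nascent mesoderm, was at 0.81 CPM in ES-NMP and 10.5 in Epi-NMP, and Ripply2, which ends the segmentation programme, had 9 UMIs in ES-NMP and 61 in Epi-NMP. Few cells held either gene: Mesp1 was detected in 0.481% of ES-NMP cells and 1.8% of Epi-NMP cells, and Ripply2 in 0% and 0.54%. Rspo3, a secreted enhancer of WNT signalling in the tail, was at 48.2 CPM in ES-NMP and 234 in Epi-NMP, 4.85-fold higher (4.65 to 5.07). Tbx6, the factor that commits cells to paraxial mesoderm, was the exception, as given above. Meox1 and Sox2 were in the same cell in 0.90% of Epi-NMP cells against a product of 2.81%. Meox1 and Rspo3 had log2 ratios of 4.34 and 1.66 against naive-low cells, in place of 5.03 and 2.28. Ripply2 ranged from 4.45 to 5.04 on the log2 scale under the other choices that moved it.

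The Notch pathway drives the segmentation clock in this tissue, with Hes7 and Lfng as cycling targets. The window before Hes7 is shown for the letters TGGGAA, the core that the Notch effector RBPJ reads, in capitals on either strand (chr11:69120203-69120452, plus strand, RefSeq GRCm38.p6, 5′ to 3′).
Hes7: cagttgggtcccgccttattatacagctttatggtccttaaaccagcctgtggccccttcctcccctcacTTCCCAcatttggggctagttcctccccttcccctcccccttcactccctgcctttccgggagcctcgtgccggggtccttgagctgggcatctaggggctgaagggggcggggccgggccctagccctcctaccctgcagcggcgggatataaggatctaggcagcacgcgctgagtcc
TGGGAA was found in 4 of 16 Notch genes with a window (Rbpj, Lfng, Hes5 and Hes7) and in 7094 of all 32851 windows (21.6%). Hes7 was at 34.7 CPM in ES-NMP and 100.1 in Epi-NMP, 2.89-fold higher (2.73 to 3.06), and its log2 ratio was 0.85 against naive-low cells, under 2-fold. Lfng was at 4.99 CPM in ES-NMP and 13.3 in Epi-NMP, 2.67-fold higher (2.29 to 3.13), while Hes5, a neural target, was at 9.03 CPM in ES-NMP and 9.21 in Epi-NMP. The ligand Dll1 was at 8.76 CPM in ES-NMP and 21.4 in Epi-NMP, and the receptors Notch1 and Notch2 at 7.95 and 25.7 CPM and at 6.04 and 22.1 CPM in the same order. Over all barcodes the log2 ratio of Notch2 was 3.37 in place of 1.87. Of 21 measured Notch genes 7 were higher and 1 lower (median 0.60, or 0.33 against naive-low cells), against 7.48% and 11.9% of all measured genes. Hes7 and Dll1 were together in 7.38% of Epi-NMP cells (product 4.81%) and 2.21% of ES-NMP cells (product 0.759%).

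Neural genes were split in direction. Of 25 measured (35 listed), 8 were at least 2-fold higher in Epi-NMP and 6 lower, with a median of 0.03, or -0.25 against naive-low cells. The shares over all measured genes were 7.48% and 11.9%. Sox1, the earliest neural factor of the SOX family, was at 6.83 CPM in ES-NMP and 0.719 in Epi-NMP, 9.51-fold lower (5.8 to 16.8), and the neuronal tubulin Tubb3 at 44.9 CPM in ES-NMP and 8.85 in Epi-NMP. Sox4 and Sox11, later SOX factors of progenitors and young neurons, were at 62.9 and 209.6 CPM and at 75.1 and 137 CPM, and Sox4 was detected in 33.4% of ES-NMP cells and 75.3% of Epi-NMP cells. Zic1, a zinc-finger factor of dorsal neural tube and somite, was at 4.65 CPM in ES-NMP and 29.3 in Epi-NMP, 6.29-fold higher (5.51 to 7.2). The adhesion molecule Ncam1 was at 17 CPM in ES-NMP and 120.4 in Epi-NMP, 7.08-fold higher (6.62 to 7.58). Dorsal Lmx1a had 10 UMIs in ES-NMP and 84 in Epi-NMP, and Neurog2, which starts neuron formation, 31 UMIs in ES-NMP and 111 in Epi-NMP. Pax6 was low in both, at 1.03 CPM in ES-NMP and 0.314 in Epi-NMP. At least 3 neural genes were in 42.4% of ES-NMP cells and 75.7% of Epi-NMP cells. Widely detected members weigh in this count, Sox4 as given above and Ncam1 in 12.4% and 47.6% of cells. Sox1 was in 5.07% of ES-NMP cells and 0.36% of Epi-NMP cells. Sox1, Ncam1 and Neurog2 had log2 ratios of -3.88, 2.21 and 2.76 against naive-low cells, in place of -3.25, 2.82 and 3.52. Sox1 ranged from -4.07 to -3.25 on the log2 scale under the other choices that moved it.

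Of 17 listed genes of node and notochord 13 were measured. Of these 9 were higher and 2 lower, with a median of 3.19, or 2.99 against naive-low cells. A member near 0 in ES-NMP, such as Shh or Foxa1, could reach the minimum of 50 UMIs only by being high in Epi-NMP. At least 3 listed members were held by 0.481% of ES-NMP cells and 17.7% of Epi-NMP cells. Shh, the signal of notochord and floor plate, had 3 UMIs in ES-NMP and 150 in Epi-NMP, a ratio of 161 (54 to 788). Foxa1 and Foxa2, forkhead factors of these tissues and of endoderm, had 7 UMIs in ES-NMP and 252 in Epi-NMP, and 90 UMIs in ES-NMP and 340 in Epi-NMP. The BMP antagonists Chrd and Nog were at 0.838 and 17 CPM and at 1.36 and 12.4 CPM. Sox9, which notochord shares with neural crest and cartilage, was at 1.51 CPM in ES-NMP and 28.3 in Epi-NMP, 18.8-fold higher (15.3 to 23.2). Over all measured genes 7.48% were higher and 11.9% lower. In the Hedgehog pathway 3 of 11 genes were higher and none lower (median 0.89, or 0.48 against naive-low cells). They were Shh, its receptor and target Ptch1, at 8.27 CPM in ES-NMP and 53.5 in Epi-NMP, 6.47-fold higher (5.86 to 7.15), and the target Gli1, at 1.76 CPM in ES-NMP and 7.23 in Epi-NMP, 4.11-fold higher (3.23 to 5.23). Ptch1 was detected in 6.03% of ES-NMP cells and 31.1% of Epi-NMP cells. Shh ranged from 6.5 to 8.48, Nog from 3.19 to 4.14 and Sox9 from 4.23 to 4.81 on the log2 scale under the other choices that moved them.

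Lists of other tissues the cultures could hold gave mixed counts, where the shares over all measured genes were 7.48% higher and 11.9% lower. Neural crest genes had 5 of 9 higher and 2 lower (median 1.03, or 0.55 against naive-low cells, but -0.28 over 14 genes with no minimum) and summed to 37.6 CPM in ES-NMP and 52.8 in Epi-NMP. Definitive endoderm genes had 3 of 9 higher and 4 lower (median -0.20, or -0.30 against naive-low cells) and summed to 220.2 CPM in ES-NMP and 56.7 in Epi-NMP, mostly Trh, at 159 CPM in ES-NMP and 0.494 in Epi-NMP, while Sox17 was at 2.35 CPM in ES-NMP and 1.08 in Epi-NMP. Of its higher members, Gata6 and Cxcr4 were at log2 ratios of 0.87 and 0.98 against naive-low cells, in place of 1.54 and 1.53, which ends the call of both. Lateral, cardiac and vessel genes had 3 of 10 higher and 3 lower (median -0.25, or -0.25 against naive-low cells). Among them Lmo2, an adapter of blood and vessel transcription factors, was at 10.4 CPM in ES-NMP and 136 in Epi-NMP, 13-fold higher (12 to 14.1), and Pecam1, a surface protein of endothelium and stem cells, at 11.8 CPM in ES-NMP and 0.0898 in Epi-NMP. Intermediate mesoderm genes had 3 of 5 higher and none lower (median 1.19, or 1.61 against naive-low cells). Smooth muscle and contractile genes had 1 of 12 higher and 7 lower (median -2.08, or -2.47 against naive-low cells), with Tagln at 63.4 CPM in ES-NMP and 2.79 in Epi-NMP but detected in only 6.68% and 1.44% of cells, and Tpm1 at 239 CPM in ES-NMP and 626 in Epi-NMP. Trophoblast genes had 1 of 12 higher and 8 lower (median -1.36, or -0.98 against naive-low cells). No gene of the lists for red blood cells and for the earliest embryonic state reached the minimum. Trh and Pecam1 had log2 ratios of -5.79 and -3.17 against naive-low cells, in place of -8.33 and -7.04. Trh ranged from -8.33 to -7.68, Pecam1 from -7.78 to -7.04 and Cxcr4 from 0.77 to 1.53 on the log2 scale under the other choices that moved them.

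Signalling genes were mixed in direction, and over all measured genes 7.48% were higher and 11.9% lower. Of 26 WNT ligands and receptors 6 were at least 2-fold higher in Epi-NMP and 5 lower (median 0.27, or -0.11 against naive-low cells). Wnt3a, the caudal ligand, was at 13 CPM in ES-NMP and 4.13 in Epi-NMP, 3.15-fold lower (2.54 to 3.95), and Wnt3 at 14.1 CPM in ES-NMP and 4.49 in Epi-NMP. Wnt5a, a ligand of axis elongation that acts largely outside β-catenin, was at 7.04 CPM in ES-NMP and 26.5 in Epi-NMP, 3.76-fold higher (3.33 to 4.24). Both cultures received CHIR99021, and 3 of 20 WNT targets and inhibitors were higher and 4 lower (median 0.17, or -0.21 against naive-low cells). The general target Axin2 was at 33.9 CPM in ES-NMP and 27.7 in Epi-NMP, Lef1 at 71.4 and 90.6, and Sp5 at 128 and 161.

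Added FGF2 was part of the Epi-NMP protocol alone, per the labels. The counts of this paragraph stand beside shares over all measured genes of 7.48% higher and 11.9% lower. The list of FGF and ERK feedback genes had 3 of 15 higher and none lower (median 0.63, or 0.60 against naive-low cells). They were Phlda1, at 18.6 CPM in ES-NMP and 110.2 in Epi-NMP, 5.91-fold higher (5.53 to 6.32), and the ERK phosphatases Dusp6, at 23 CPM in ES-NMP and 69.3 in Epi-NMP, 3.01-fold higher (2.8 to 3.23), and Dusp5, at 2.99 CPM in ES-NMP and 7.77 in Epi-NMP. Etv4 and Etv5, transcription factors downstream of FGF, were under 2-fold apart in opposite directions, at 74.7 and 99.2 CPM and at 55.8 and 34.8 CPM. Of 13 FGF ligands and receptors 3 were higher and 5 lower (median -0.53, or -0.95 against naive-low cells), with Fgf4 of stem cells at 12.2 CPM in ES-NMP and 3.23 in Epi-NMP and Fgf18 at 1.31 CPM in ES-NMP and 4.94 in Epi-NMP. BMP genes had 10 of 21 higher and 4 lower (median 0.96, or 0.77 against naive-low cells). In the retinoic acid list (5 of 13 higher, 2 lower, median -0.01, or 0.04 against naive-low cells) the synthesising enzyme Aldh1a2 was at 6.44 CPM in ES-NMP and 21.9 in Epi-NMP and the binding protein Crabp1 at 113 CPM in ES-NMP and 23.1 in Epi-NMP, 4.88-fold lower (4.46 to 5.34). Fgf4 and Crabp1 had log2 ratios of -1.17 and -2.96 against naive-low cells, in place of -1.92 and -2.29.

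The insulin-like growth factor axis had 7 of 12 genes higher and none lower, with a median of 1.31, or 0.94 against naive-low cells. Its ligand Igf2, an imprinted growth factor, was at 2.91 CPM in ES-NMP and 22.3 in Epi-NMP, 7.68-fold higher (6.52 to 9.07), and the binding protein Igfbp5 at 2.72 CPM in ES-NMP and 59.7 in Epi-NMP, 21.9-fold higher (18.8 to 25.6). The receptors Igf1r and Igf2r were at 12.1 and 30.6 CPM and at 8.2 and 20.6 CPM. Guidance genes were also counted: 6 of 18 Eph receptors and ephrins were higher and none lower (median 0.66, or 0.32 against naive-low cells), and 12 of 24 semaphorins, netrins, Slits and their receptors were higher and 2 lower (median 0.90, or 0.76 against naive-low cells). Over all measured genes 7.48% were higher and 11.9% lower. Slit2, a repellent secreted by the floor plate, was at 2.01 CPM in ES-NMP and 34.5 in Epi-NMP, 17.1-fold higher (14.3 to 20.6), and Sema3a at 0.95 CPM in ES-NMP and 10.1 in Epi-NMP. Igf2, Igfbp5 and Sema3a had log2 ratios of 2.26, 3.84 and 2.72 against naive-low cells, in place of 2.94, 4.45 and 3.4.

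Epithelial adhesion genes were lower in Epi-NMP in 22 of 27 measured and higher in 2, with a median of -2.85, or -2.76 against naive-low cells. E-cadherin (Cdh1) was at 36.2 CPM in ES-NMP and 1.08 in Epi-NMP, 33.6-fold lower (22.5 to 52.5), and was detected in 22.4% of ES-NMP cells and 0.72% of Epi-NMP cells. The surface protein Epcam was at 168 CPM in ES-NMP and 12.9 in Epi-NMP, 13-fold lower (11.6 to 14.7), and was detected in 58.4% and 7.65%, with 73% of naive-high and 48.7% of naive-low cells. Grhl2 and Esrp1, regulators of the epithelial state, had 195 UMIs in ES-NMP and 3 in Epi-NMP, and 609 UMIs in ES-NMP and 6 in Epi-NMP. The tight junction gene Tjp1 was at 17.8 CPM in ES-NMP and 24.6 in Epi-NMP, and the members that were higher were Dsp, a desmosome protein, at 6.72 CPM in ES-NMP and 21.2 in Epi-NMP, and Cldn9. At least 3 of these genes were in 56.3% of ES-NMP cells and 12.5% of Epi-NMP cells. Cdh1 ranged from -5.72 to -5.07 on the log2 scale under the other choices that moved it.

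Mesenchymal transition genes were higher in 10 of 17 and lower in none, with a median of 1.04, or 0.72 against naive-low cells. N-cadherin (Cdh2), which replaces E-cadherin in streak, mesoderm and neural tissue, was at 27.1 CPM in ES-NMP and 97 in Epi-NMP, 3.58-fold higher (3.37 to 3.81). Twist1 was at 2.7 CPM in ES-NMP and 20.4 in Epi-NMP, 7.58-fold higher (6.39 to 9.02), and Zeb1, a repressor of Cdh1, at 7.31 CPM in ES-NMP and 33.2 in Epi-NMP, 4.55-fold higher (4.06 to 5.1). Vimentin (Vim), the filament protein of mesenchyme, was at 186 CPM in ES-NMP and 387 in Epi-NMP, 2.09-fold higher (2.03 to 2.14). Snai1, the factor of the gastrulation transition, was at 6.62 CPM in ES-NMP and 11.5 in Epi-NMP, under 2-fold. Collagens and laminins had 13 of 28 higher and 3 lower (median 0.72, or 0.63 against naive-low cells), among them Fbn2, a microfibril protein, at 3.03 CPM in ES-NMP and 25 in Epi-NMP, and Col3a1, with 20 UMIs in ES-NMP and 184 in Epi-NMP. Collagen I went the other way, Col1a1 being at 1.94 CPM in ES-NMP and 0.404 in Epi-NMP. Of 11 integrins 4 were higher and 1 lower (median 0.69, or 0.44 against naive-low cells), and Itga6, a laminin receptor subunit, was at 19.5 CPM in ES-NMP and 50.4 in Epi-NMP. The shares over all measured genes were 7.48% higher and 11.9% lower. Col3a1 had a log2 ratio of 4.19 against naive-low cells, in place of 4.89.

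**Figure D5:**
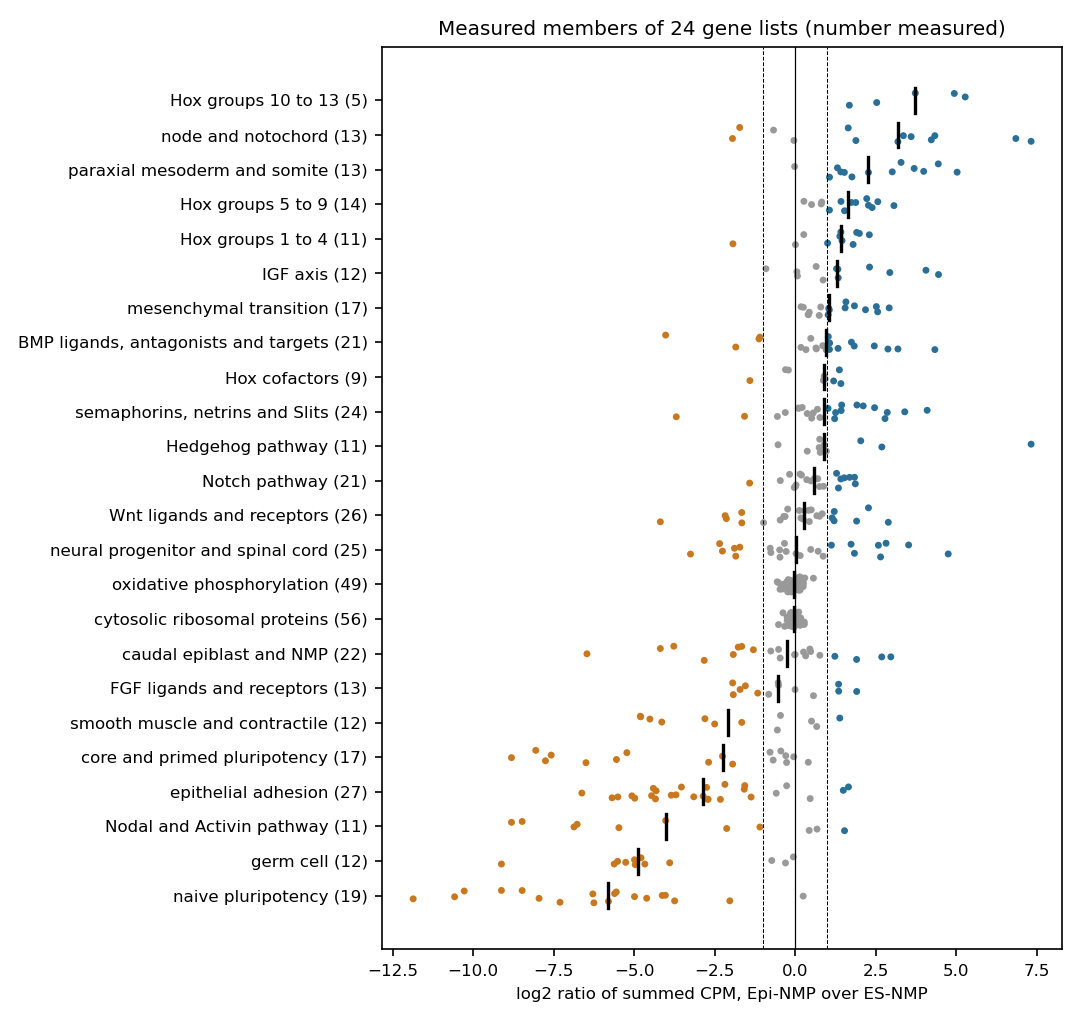
Log2 ratio of Epi-NMP over ES-NMP for each measured member (points) of the gene lists (y), with the median of the list as a bar, and lines at 0 and at 2-fold. The medians of the naive, Nodal and epithelial lists lie to the left of 0 and those of the later Hox, node and paraxial lists to the right, and most lists, the Nodal, epithelial and node lists among them, have members on both sides.

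Growth and timing genes followed no shared direction across lists. Over all 12949 measured genes 7.48% were at least 2-fold higher and 11.9% lower, and the counts of several of these lists, DNA methylation among them, lie near those shares. Of 29 imprinted genes 5 were higher and 6 lower (median -0.31, or -0.03 against naive-low cells). Cdkn1c, an imprinted inhibitor of cyclin-dependent kinases, was at 97.2 CPM in ES-NMP and 555 in Epi-NMP, 5.71-fold higher (5.54 to 5.88), and Grb10, an adapter of insulin and IGF receptors, at 31.5 CPM in ES-NMP and 124 in Epi-NMP, 3.94-fold higher (3.72 to 4.17). Nnat had 1618 UMIs in ES-NMP and 3 in Epi-NMP, and Meg3 was at 303 CPM in ES-NMP and 270.1 in Epi-NMP. Of 14 genes of progenitor timing, the Lin28 and let-7 axis, 4 were higher and none lower (median 0.47, or 0.28 against naive-low cells). Hmga2, a chromatin protein repressed by let-7, was at 56.9 CPM in ES-NMP and 267 in Epi-NMP, 4.69-fold higher (4.51 to 4.88), and was detected in 29.6% of ES-NMP cells and 77.4% of Epi-NMP cells, while Lin28a and Igf2bp1 stood level. Polycomb genes, whose complexes hold Hox clusters silent, had 4 of 25 higher and 2 lower (median 0.24, or 0.26 against naive-low cells). Ezh2, the methyltransferase, was at 174 CPM in ES-NMP and 209.6 in Epi-NMP, Cbx7 at 23.9 CPM in ES-NMP and 2.16 in Epi-NMP, 11.1-fold lower (8.33 to 15.1), and the demethylase Kdm6b at 20 CPM in ES-NMP and 57.3 in Epi-NMP, 2.87-fold higher (2.66 to 3.09), with a log2 ratio of 2.60 over all barcodes in place of 1.52. DNA methylation genes had 1 of 17 higher (the demethylating enzyme Tet3, at 9.59 CPM in ES-NMP and 22.6 in Epi-NMP, with a log2 ratio of 0.78 against naive-low cells) and 2 lower (Dnmt3b and Dnmt3l), with Dnmt1 at 60.6 CPM in ES-NMP and 70.1 in Epi-NMP and a list median of 0.20, or 0.27 against naive-low cells. Cbx7 had a log2 ratio of -2.13 against naive-low cells, in place of -3.47. Nnat ranged from -7.39 to -6.08 on the log2 scale under the other choices that moved it.

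Most housekeeping lists stood level. None of 49 oxidative phosphorylation genes, 56 ribosomal protein genes, 13 mitochondrial genes or 14 broadly expressed controls differed 2-fold, with medians of -0.02, -0.02, 0.24 and -0.01. The G2 and M phase list had none of 30 past 2-fold (median -0.12) and the S phase list 1 of 28 (median -0.18), Cdt1, at 86.6 CPM in ES-NMP and 36.7 in Epi-NMP, just under 2-fold lower against naive-low cells. Smaller differences ran mostly lower: intervals lay below 1 for 20 S phase genes and above 1 for 4, and for 18 and 5 G2 and M phase genes. A median cell held 16 S phase genes in ES-NMP and 13 in Epi-NMP. At least 3 G2 and M phase genes were in 98.3% of ES-NMP cells and 90.3% of Epi-NMP cells. Mcm5 was at a log2 ratio of -0.99, just under 2-fold lower. Glycolysis had 1 of 23 higher and 2 lower, cholesterol synthesis 1 and 2 of 23, and the p53 list 0 and 2 of 16. The counts of this paragraph stand beside 7.48% higher and 11.9% lower over all measured genes. In purine metabolism Hprt was the only 1 of 18 past 2-fold, and Aprt, the sister salvage enzyme, was at 483 CPM in ES-NMP and 306 in Epi-NMP. Cyclins and their inhibitors had 3 of 18 higher and none lower. Ccnd2, a cyclin of G1, was at 240.1 CPM in ES-NMP and 586 in Epi-NMP, 2.44-fold higher (2.38 to 2.5), with a log2 ratio of 0.74 against naive-low cells. Of 22 immediate early and heat shock genes 6 were higher and 1 lower (median 0.42, or 0.25 against naive-low cells), Fos being at 68.9 CPM in ES-NMP and 218 in Epi-NMP, Jun at 42.4 and 158 and Junb at 24.2 and 80.2.

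Genes outside the lists were named by rank, among those that reached 50 CPM in 1 library and 200 UMIs in the sum. The highest ratio was that of Arg1, an arginase of the urea cycle, at 3.68 CPM in ES-NMP and 90.1 in Epi-NMP, 24.5-fold higher (21.5 to 28). Sepp1, the plasma carrier of selenium, was at 12.8 CPM in ES-NMP and 202 in Epi-NMP, 15.8-fold higher (14.7 to 16.9), and was detected in 8.89% of ES-NMP cells and 57% of Epi-NMP cells. Ppp1r1a, an inhibitor of protein phosphatase 1, was at 14.8 CPM in ES-NMP and 152 in Epi-NMP. Zfp503, a zinc-finger repressor, was at 10.2 CPM in ES-NMP and 86.3 in Epi-NMP, and clusterin (Clu), a secreted chaperone, at 9.73 CPM in ES-NMP and 72.9 in Epi-NMP. Limch1 was at 5.6 CPM in ES-NMP and 56.7 in Epi-NMP, and Sprr2a3, which has near-identical copies, at 7.73 CPM in ES-NMP and 56.6 in Epi-NMP. By share of cells, the small GTPase Arl4a was detected in 25.3% of ES-NMP cells and 75.5% of Epi-NMP cells, and Gpc3, a cell-surface proteoglycan that tempers growth, in 23.7% and 75.8%. Arg1 and Zfp503 had log2 ratios of 4.00 and 2.42 against naive-low cells, in place of 4.62 and 3.08.

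On the ES-NMP side the lowest ratios outside the pluripotency genes were those of Hprt, 216-fold lower (141 to 349), Trh, the precursor of thyrotropin-releasing hormone, 321-fold lower (179.5 to 644), and Trap1a, a tumour antigen gene on the X chromosome, at 55.5 CPM in ES-NMP and 0.449 in Epi-NMP. Sfn (14-3-3 sigma), an epithelial adapter, was at 66.2 CPM in ES-NMP and 1.8 in Epi-NMP, 36.8-fold lower (27 to 51.6). L1td1, an RNA-binding protein of stem cells derived from a transposon, was at 72.9 CPM in ES-NMP and 0.809 in Epi-NMP. Chchd10, a mitochondrial protein, was detected in 69.9% of ES-NMP cells and 15.6% of Epi-NMP cells, the metallothionein Mt2 in 64.7% and 22.1%, and Bst2, an antiviral membrane protein, in 53.7% and 14.6%. Hprt itself (chromosome X, 52988137 to 53021659, plus strand, mm10, protein-coding) was held by 82.9% of naive-high and 75% of naive-low ES-NMP cells, so both classes had it. Trap1a and L1td1 had log2 ratios of -4.28 and -4.31 against naive-low cells, in place of -6.95 and -6.49. Those of Chchd10 and Mt2 were -2.39 and -1.65, in place of -3.81 and -3.65. Sfn ranged from -7.66 to -5.20 and L1td1 from -8.63 to -6.49 on the log2 scale under the other choices that moved them.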

How the data were processed

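Each library was made from 8700 loaded cells with 10x Chromium chemistry, per the labels' protocols. The submitters' processing notes name build mm10, Cell Ranger 1.3.1 and Seurat 2.0. They do not give aligner settings, annotation or strand use, so these are not given in the sources used here. Values in the deposited matrix are raw UMI counts, as the authors made them, and a deposited cell table gives each barcode's library and the mark TRUE or FALSE.

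Counts of TRUE cells were summed per library and divided by the library total in units of 1000000 (CPM). Genes that reached 50 UMIs in the sum of the libraries were measured, and a 2-fold difference was called. CPM ratios carry exact conditional-binomial 95% intervals and shares Clopper-Pearson ones, and neither covers variation between samples. A library with 0 counts was set to 3 counts (0.135 CPM in Epi-NMP, 0.0419 in ES-NMP), and its ratio is a bound, also in list medians. For shares, each cell was thinned without replacement to 8000 UMIs.

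Members and the 55 gene lists (1059 genes, 1056 in the table) were chosen with earlier results of these data known. Named genes were the 15 highest and 15 lowest ratios, the 10 largest differences in share each way, the 4 largest differences of each list, and T, Sox2, Nkx1-2, Cdx2 and Hprt, without ribosomal, mitochondrial and predicted genes. Some of the genes picked this way are not reported here. Further list members were named for contrast after their values were seen. Alternatives were other scalings (edgeR 4.0.16 TMM, DESeq2 1.42.0 size factors), depths, minimums, weights and sets of cells. No doublet caller was run. Python 3.11.15, numpy 2.4.6, scipy 1.17.1, pandas 2.3.3, matplotlib 3.10.9 and R 4.3.3 were used, and the scripts were tested on simulated data. Gene positions are from GENCODE on GRCm38 (mm10), and promoter windows from RefSeq.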

Additional observations from a re-analysis of the deposited data

Results flagged for a closer look

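Barcodes marked FALSE lie outside the comparison, and Epi-NMP had 1513 of them. They were shallower, with a median of 4720 UMIs and 1766 genes against 19252 and 4209 in TRUE barcodes. Of 2772 genes compared with the TRUE Epi-NMP cells, 53 were at least 2-fold higher in the FALSE barcodes and 24 at least 2-fold lower, and the 5 highest ratios are given. Abhd2, a hydrolase gene, was at 100.4 CPM in FALSE and 9.61 in TRUE barcodes, 10.4-fold higher (8.97 to 12.2), and in ES-NMP the same ratio was 4.31. Notch2, the Notch receptor, was 8.48-fold higher (7.65 to 9.42), and 2.68-fold in ES-NMP. Spry2, an FGF feedback inhibitor, was 7.49-fold higher (6.82 to 8.24). The zinc transporter gene Slc39a1 was 7.06-fold higher (6.47 to 7.73), and Cercam 7.03-fold (6.0 to 8.25). The mitochondrial share of UMIs was 4.53% in FALSE and 2.61% in TRUE Epi-NMP barcodes, and 4.02% and 2.28% in ES-NMP, and the part of depth and of the mitochondrial share in these ratios was not tested.

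Hprt was present in a library outside the comparison: Epi-CE-T was at 138 CPM, where Epi-CE was at 0.801, Epi-NMP at 0.943 and ES-NMP at 204.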

How the results depend on the processing

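The counts of genes at least 2-fold higher and lower, 968 and 1545 of 12949, were 642 and 990 of 12157 without the naive-high ES-NMP cells, 3914 and 2366 of 19284 with no minimum beyond 1 UMI, and 600 and 840 of 10637 with a minimum of 200 UMIs. With every cell thinned to 8000 UMIs and summed, 1018 genes of 11315 were lower and 783 higher. The share of calls that were higher moved from 38.5% to 62.3% with no minimum, where the median log2 ratio of all genes was 0.10. There a 0 set to 3 counts made genes with 1 UMI in ES-NMP and none in Epi-NMP count as higher. Under the other settings 851 to 987 genes were higher and 1411 to 1639 lower, the first of these from cells with at least 15000 UMIs, a setting chosen after seeing the data. Genes with a share at least 20 points higher and lower, 89 and 83, were 39 and 44 after thinning to 4000 UMIs, and 57 and 45 over all barcodes thinned to 4000, which left out 204 Epi-NMP cells. With no thinning 294 shares were lower. The neural crest list, with a median of 1.03 over 9 genes, was at -0.28 over 14 genes with no minimum. Of the named genes, 74 moved by over 1.5 times without the naive-high cells, where 15 calls were lost and 1 sign turned (Cdx2), 35 when thinned and summed, and 0 under TMM or DESeq2 scaling. The cause of these changes was not tested. No paired analysis was possible because each group is 1 library with the single replicate number 1. Below 3 counts a level cannot be told from 0, which is 0.135 CPM in Epi-NMP and 0.0419 in ES-NMP.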

Other observations

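The levels of Hprt split the 4 libraries. Of 11208 genes with at least 1 CPM in both ES-NMP and Epi-CE-T, 3 had a level in the lower of those libraries over 10 times that in the higher of Epi-CE and Epi-NMP. Genes close to 1 CPM could not reach this, since levels were held at 3 counts or more, which is 0.135 CPM in Epi-NMP. They were Hprt (146 times), Nnat, an imprinted gene (17.4 times), and Pdzrn4 (14.4 times). On the Y chromosome, Kdm5d had 27 UMIs in ES-NMP, 46 in Epi-CE-T and 0 in Epi-CE and in Epi-NMP, while Ddx3y, Eif2s3y and Uty were present in all 4. Tsix and Xist, which overlap on opposite strands and cannot be told apart where strand use is not given, did not follow this split. They had 292 and 118 UMIs in ES-NMP, 50 and 19 in Epi-CE, 4 and 7 in Epi-CE-T, and 2 and 1 in Epi-NMP.

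Interferon and antigen presentation genes were split, with 5 of 20 at least 2-fold higher in Epi-NMP and 4 lower, against 7.48% and 11.9% of all measured genes. The major histocompatibility genes H2-D1 and H2-K1 were at 48.5 and 39.9 CPM in ES-NMP and at 16.7 and 15.1 in Epi-NMP. Ifitm1, a membrane protein of early germ and mesoderm cells, went the other way, at 235 CPM in ES-NMP and 591 in Epi-NMP.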
